A study of Rattus norvegicus with 12 samples.

Results

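The genes described here encode the enzymes of the mevalonate and isoprenoid arm of cholesterol synthesis, the stretch of the pathway from acetyl-CoA to squalene, measured in rats after a thermal injury. The members are 7 genes, namely Acat2, Mvk, Pmvk, Mvd, Idi1, Fdps and Fdft1. They were chosen by function, with earlier results of these data known. A probe set counted as a member when the platform annotation gave it a single gene and that gene was one of these, which left 11 of the 15923 probe sets of the table. Mvk had 3 probe sets, Idi1 and Fdft1 had 2 each, and the other genes had 1. Total RNA from burned rats was compared with total RNA from sham-treated rats on Affymetrix RAE230A arrays, with 3 samples for each of days 1, 2, 4 and 7 after the injury. The deposited value is 1 log2 ratio of injury and sham signals per probe set and sample. Results are given for the 9 samples of days 2, 4 and 7, because the identifiers of day 1 do not stand for the same probe sets as those of the other days. Signals recovered from the ratios had rank correlations of 0.644 to 0.694 among these 9 arrays, but of -0.00463 to 0.0187 when 1 of the pair was from day 1.

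The labels give thermal injury in channel 2 (Cy5) and sham in channel 1 (Cy3) but not the order of the ratio. Injury over sham is likely from that layout, and every value below is read that way. With the opposite order every sign would turn. Correlations of log2 ratios between pairs of the 9 arrays ran from -0.105 to 0.148 over all probe sets. Arrays thus shared little of their ratios, pairs of the same day included. The labels name no tissue, strain, sex or age, and it is not stated that the replicates were taken from different rats, so p-values measure the spread between these samples, which may be technical. Each array was centred on its median, and a positive value means a higher ratio than that median. In RNA of a whole sample, fewer cells of a type and less RNA per cell cannot be told apart.

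The pathway starts from acetyl-CoA, which the cytosolic thiolase encoded by Acat2 condenses to acetoacetyl-CoA. Mevalonate, made from it in later steps, is phosphorylated by Mvk and Pmvk and decarboxylated by Mvd to isopentenyl diphosphate, the building block of all isoprenoids. Idi1 isomerizes that unit, Fdps joins units to farnesyl diphosphate, and Fdft1 couples a pair of farnesyl diphosphates to squalene. Farnesyl diphosphate is also the branch point to prenylated proteins, dolichol and the ubiquinone side chain. The liver is a main site of the pathway. When sterols are low, the transcription factor SREBP-2 is released from the endoplasmic reticulum and, with the partner factors NF-Y and Sp1, activates most of these genes together. Acat2 is not the sterol-esterifying enzyme Soat2, which has been called ACAT2 as well.

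Because these genes are known to share regulators, the 250 bases before the transcription start are shown for 4 of them. Acat2 and Idi1 were the pair with the most similar ratios, Fdps makes farnesyl diphosphate, and Mvk was the member whose gene average followed the others least. That average includes a dim probe set that ran against the other Mvk probe sets. The sequences are those of RefSeq on GRCr8, which held 5 of the 7 members, written 5′ to 3′ on the strand of the gene. Capitals mark CCAAT, the core recognised by NF-Y, and GGGCGG, the core recognised by Sp1, each on either strand, so that ATTGG and CCGCCC are marked too.
Acat2, chr1:50100590-50100839, strand +: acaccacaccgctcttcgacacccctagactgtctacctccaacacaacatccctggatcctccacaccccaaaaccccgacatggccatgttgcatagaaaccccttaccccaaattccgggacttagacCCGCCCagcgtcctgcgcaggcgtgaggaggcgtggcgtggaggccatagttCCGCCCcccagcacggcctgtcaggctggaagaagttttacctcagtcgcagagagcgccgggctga
Idi1, chr17:66547525-66547774, strand -: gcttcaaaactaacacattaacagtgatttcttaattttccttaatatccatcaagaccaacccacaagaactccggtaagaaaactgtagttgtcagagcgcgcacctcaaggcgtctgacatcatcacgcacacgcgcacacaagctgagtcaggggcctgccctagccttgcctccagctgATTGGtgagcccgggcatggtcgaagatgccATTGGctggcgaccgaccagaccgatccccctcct
Fdps, chr2:176804817-176805066, strand -: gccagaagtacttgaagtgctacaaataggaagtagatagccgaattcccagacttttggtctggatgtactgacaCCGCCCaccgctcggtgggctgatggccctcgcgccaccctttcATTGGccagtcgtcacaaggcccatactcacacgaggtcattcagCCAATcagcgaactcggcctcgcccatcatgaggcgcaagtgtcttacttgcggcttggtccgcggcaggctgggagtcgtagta
Mvk, chr12:47819504-47819753, strand -: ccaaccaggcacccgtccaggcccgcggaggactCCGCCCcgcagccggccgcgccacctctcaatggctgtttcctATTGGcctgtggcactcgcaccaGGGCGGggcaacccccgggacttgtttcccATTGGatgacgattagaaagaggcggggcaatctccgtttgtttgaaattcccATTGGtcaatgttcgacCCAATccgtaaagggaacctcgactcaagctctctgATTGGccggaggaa
CCAAT stood 5 times in the Mvk stretch, 2 times each in Idi1 and Fdps, 1 time in Mvd, which is not printed, and 0 times in Acat2. Of 33469 rat promoter stretches of the same length, 34.0% held at least 1, 9.42% at least 2 and 0.565% at least 4. GGGCGG stood 2 times each in Acat2, Mvk and Mvd, 1 time in Fdps and 0 times in Idi1. Of all stretches, 30.5% held at least 1 GGGCGG and 14.8% at least 2. None of the CCAAT and GGGCGG matches overlapped. TCACNCCAC, part of the sterol response element, was found in 0 of the 5 stretches and in 0.974% of all stretches. A match is a string of letters and not a measured binding site.

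On day 2 most members had ratios above 0, on day 4 most were below 0, and on day 7 the samples disagreed. No member passed the threshold on any day or between days, which was an adjusted p under 0.05 in limma over all 10411 genes. At day 2, 6 of the 7 members had a mean above 0, with a median of 0.23, while 50.8% of all genes were above 0 with a median of 0.0047. At day 4, 6 of 7 were below 0, with a median of -0.29, against 49% of all genes and a median of 0.0063. The members' day 4 median was -0.16 without sample 1 of day 4, -0.46 without sample 2 and -0.41 without sample 3, with 5 or 6 of 7 below 0. At day 7, 5 of 7 were below 0, with a median of -0.23, against 51.6% of all genes and a median of -0.013. The members' day 7 median was -0.024 with 4 of 7 below 0 without sample 2 of day 7, and -0.34 with 6 of 7 below 0 without sample 1. In all of these 3 comparisons limma called 0 genes, or 0%, and 7.77%, 8.81% and 10.9% of genes had an unadjusted p under 0.05 at days 2, 4 and 7. Higher at day 2 by that measure were 4.06% of all genes and 1 member, Pmvk, and lower at day 4 were 3.93% of all genes and 3 members, Acat2, Idi1 and Fdft1.

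Counted by sample on gene averages, 4 of 7 members had all 3 day 2 samples above 0, against 13.8% of all genes. These were Acat2, Pmvk, Fdps and Fdft1. At day 4 Acat2, Mvd, Idi1 and Fdft1 had all 3 samples below 0, against 16.2% of all genes, and Pmvk had all 3 above 0, against 18.3%. At day 7 Mvk was the 1 member with all 3 samples on the same side, below 0, against 18% of all genes, and this rested on its dim probe set. The mean over the 3 days ran from -0.27 for Idi1 to 0.13 for Pmvk, and the 4 genes called there by limma, or 0.0384% of all genes, included no member.

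**Figure D1:**
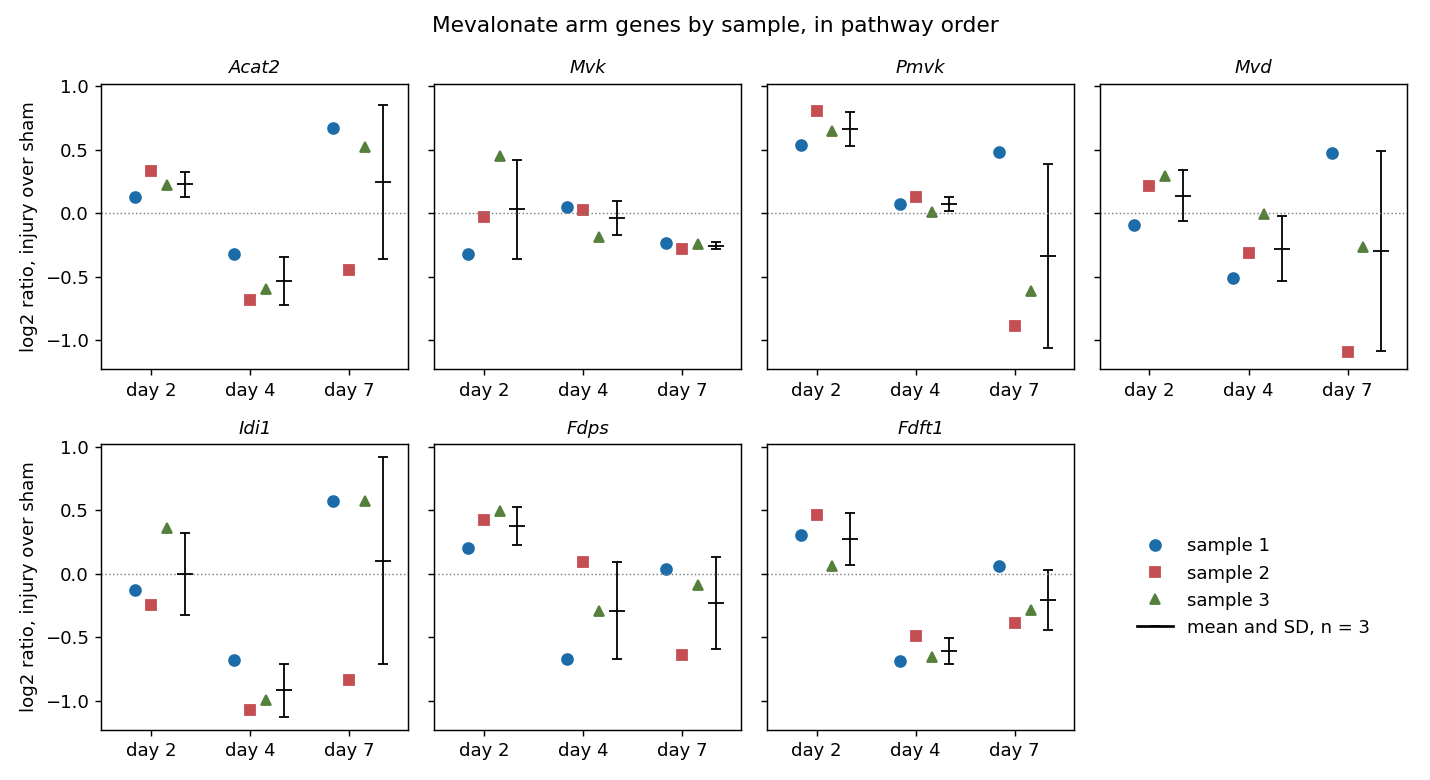
Log2 ratio of injury over sham (vertical axis) at days 2, 4 and 7 for the 7 members in pathway order, with 1 point per sample and the mean and SD of 3 samples in black. Acat2, Idi1 and Fdft1 have every day 4 point below 0 and below every day 2 point, and in all 7 genes sample 2 of day 7 lies below sample 1, in Mvk only slightly.

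The enzyme at the entry, Acat2, had ratios of 0.13, 0.33 and 0.22 in samples 1 to 3 of day 2. At day 4 they were -0.32, -0.68 and -0.60, and at day 7 0.67, -0.45 and 0.52. All day 2 samples were thus above 0, all day 4 samples below 0, and day 7 was split. The mean was 0.23 ± 0.10 (SD, n = 3) at day 2, -0.53 ± 0.19 at day 4 and 0.25 ± 0.61 at day 7. The day 4 mean corresponds to a 1.45-fold lower ratio and had an unadjusted p of 0.034 in limma, which did not hold after adjustment (adjusted p = 0.54).

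Mvk, the kinase that phosphorylates mevalonate first, had gene averages of -0.32, -0.03 and 0.45 at day 2, 0.05, 0.03 and -0.19 at day 4, and -0.24, -0.28 and -0.24 at day 7. Its day 2 samples spanned 0, those of day 4 lay near 0, and those of day 7 were close together below 0. That tight day 7 mean of -0.25 ± 0.03 averaged 3 probe sets that disagreed. The probe set 1375401_at had ratios of -1.57, -0.40 and -1.80 at day 7, while 1368232_at had 0.23, 0.27 and 0.23 and 1387119_at had 0.62, -0.73 and 0.85. The first was dim, at percentile 8.73 of the brightness recovered from the ratios, and the other pair was at percentiles 82.9 and 65.3. Without the dim probe set, a choice made after seeing the data, the day 7 value of Mvk was 0.25 (limma, adjusted p = 0.642), so the sign of the gene's day 7 ratio turned with it. Over the 9 arrays the dim probe set correlated with the other pair at r = -0.63 and -0.46, and that pair with each other at 0.32, as a description of probe sets on the same arrays.

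Pmvk, the next kinase, had the highest day 2 ratios of the arm, at 0.53, 0.80 and 0.65. At day 4 it had 0.07, 0.12 and 0.01, and at day 7 0.48, -0.88 and -0.61. All 3 day 2 samples lay above all 3 day 4 samples, and at day 7 sample 1 stood apart from the others. The day 2 mean of 0.66 ± 0.14 (SD, n = 3) is a 1.58-fold higher ratio, with an unadjusted p of 0.022 and an adjusted p of 0.568 in limma. Pmvk was the 1 member with a day 4 mean above 0, at 0.07 ± 0.06.

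Mvd, the decarboxylase, had -0.09, 0.21 and 0.29 at day 2, -0.51, -0.31 and -0.0084 at day 4, and 0.47, -1.10 and -0.27 at day 7. Its day 4 samples were all below 0, though sample 3 only just, and the day 7 samples ran from clearly above to clearly below 0. The means were 0.14 ± 0.20, -0.28 ± 0.25 and -0.30 ± 0.78 (SD, n = 3), none with an unadjusted p under 0.05. Without sample 2 of day 7 the day 7 mean of Mvd was 0.10, so its sign rested on that sample.

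Idi1, the isomerase, had the lowest day 4 mean of the arm, from ratios of -0.68, -1.07 and -0.99. Its ratios were -0.13, -0.24 and 0.36 at day 2, and 0.57, -0.84 and 0.57 at day 7. The day 4 samples were all below every day 2 sample, and sample 2 of day 7 lay within the day 4 range. The day 4 mean of -0.92 ± 0.21 (SD, n = 3) is a 1.89-fold lower ratio, with an unadjusted p of 0.0103 and an adjusted p of 0.48 in limma. Both probe sets were below 0 in every day 4 sample, 1368878_at at -0.21, -0.69 and -0.71 and 1388872_at at -1.15, -1.46 and -1.28. They differed at day 2, where 1368878_at averaged 0.21 ± 0.20 and 1388872_at -0.22 ± 0.63. The gene's day 2 mean of -0.0041 thus joins values on either side of 0.

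Fdps, the farnesyl diphosphate synthase, had 0.21, 0.42 and 0.50 at day 2, -0.67, 0.09 and -0.29 at day 4, and 0.04, -0.64 and -0.09 at day 7. Every day 2 sample was above 0 and above every sample of the later days, among which 1 sample of each day was also above 0. The means were 0.38 ± 0.15, -0.29 ± 0.38 and -0.23 ± 0.36 (SD, n = 3). None had an unadjusted p under 0.05, and the smallest, at day 2, was 0.0789 (limma, adjusted p = 0.684).

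Fdft1, squalene synthase, closes the arm and had 0.31, 0.46 and 0.060 at day 2, -0.68, -0.49 and -0.65 at day 4, and 0.062, -0.39 and -0.28 at day 7. In the gene average all day 4 samples lay below all samples of both other days. The probe set 1389906_at alone did not separate days 4 and 7. It was at -0.72 in sample 2 of day 7, and at -0.60 and -0.64 in samples 1 and 2 of day 4. In sample 3 of day 2 it was at -0.0027. Its day 4 mean of -0.61 ± 0.10 (SD, n = 3) is a 1.53-fold lower ratio and had the smallest p of the arm on any day (unadjusted p = 0.0022, limma adjusted p = 0.425). Both probe sets were below 0 in every day 4 sample, with means of -0.53 ± 0.22 for 1367839_at and -0.69 ± 0.13 for 1389906_at. At day 7 they were -0.03 ± 0.28 and -0.38 ± 0.30, so the day 7 mean of the gene rested mainly on the second.

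**Figure D2:**
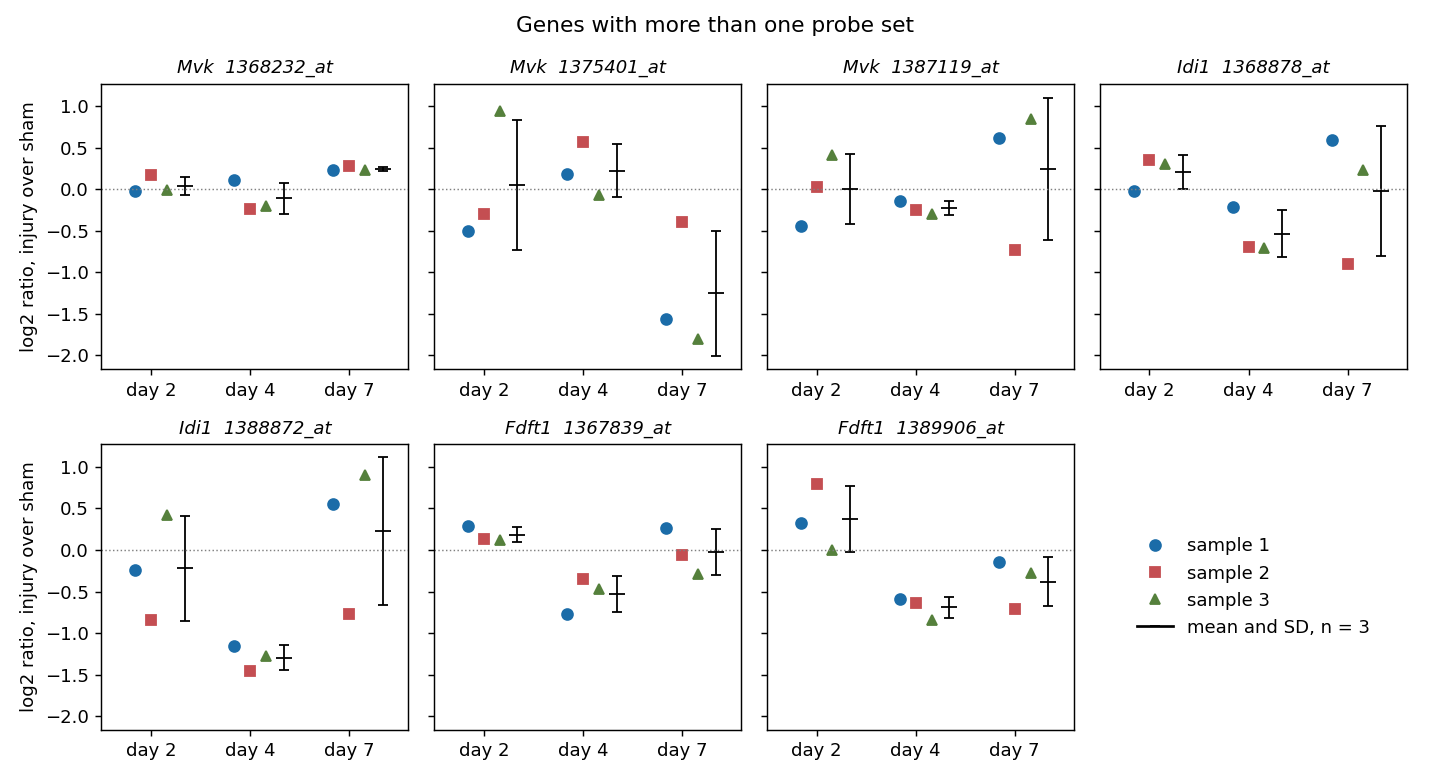
Log2 ratio of injury over sham (vertical axis) by day for each probe set of the 3 members with more than 1, with 1 point per sample and the mean and SD of 3 samples in black. The Idi1 and Fdft1 probe sets are all below 0 at day 4, while the dim Mvk probe set 1375401_at reaches -1.80 at day 7, where 1368232_at stays near 0.25.

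The question of whether the injury ratio differed between days was tested as day 4 minus day 2. All 7 members had a negative difference, with a median of -0.66, while 48.2% of all genes were negative and the median of all genes was 0.015. The differences were -0.91 for Idi1 (95% interval -1.81 to -0.013), -0.89 for Fdft1 (-1.34 to -0.43), -0.76 for Acat2 (-1.44 to -0.078) and -0.66 for Fdps (-1.27 to -0.057). Those of Pmvk, -0.59 (-1.35 to 0.17), Mvd, -0.42 (-1.27 to 0.44), and Mvk, -0.07 (-0.58 to 0.44), had intervals that include 0. These intervals are not adjusted for the number of genes, and the adjusted p in limma lay between 0.491 for Fdft1 and 0.966 for Mvk. In 5 of 7 members, Acat2, Pmvk, Idi1, Fdps and Fdft1, all 3 day 4 samples lay below all 3 day 2 samples, as they did in 7.03% of all genes. In Acat2 and in the Fdft1 gene average all day 2 samples were also above 0 and all day 4 samples below 0. This was so in 2.39% of all genes. The Fdft1 probe set 1389906_at alone was at -0.0027 in sample 3 of day 2. For each of the 5 the exact permutation test, two-sided, gave p = 0.1, the smallest that 3 samples against 3 can give. Limma called 0 genes, or 0%, in this comparison, and 4 members against 3.95% of all genes had a negative difference with an unadjusted p under 0.05. The sign of Mvk turned without sample 3 of day 2 (0.14) or sample 3 of day 4 (0.0070). The other 6 members stayed negative with any 1 sample of days 2 and 4 left out.

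The later enzymes, from squalene to cholesterol, gave similar values on the same arrays. Of the 12 genes listed, 11 were analysed here. Of these, 10 had a negative day 4 minus day 2 difference, against 48.2% of all genes, and the median of the 11 was -0.51. None passed in limma, and in 6 of 11 all day 4 samples lay below all day 2 samples, against 7.03% of all genes. The lowest was Lss, which closes the sterol ring, at -2.17 (adjusted p = 0.491), and the highest Lbr, a sterol reductase that is also a receptor of the nuclear lamina, at 0.19. Sqle, squalene epoxidase and the first enzyme after Fdft1, was at -1.71 (adjusted p = 0.477), which is lower than any of the 7 members, and Msmo1, a sterol oxidase, at -1.25 (adjusted p = 0.516). Whether the early and late enzymes differ in their change was not tested.

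**Figure D3:**
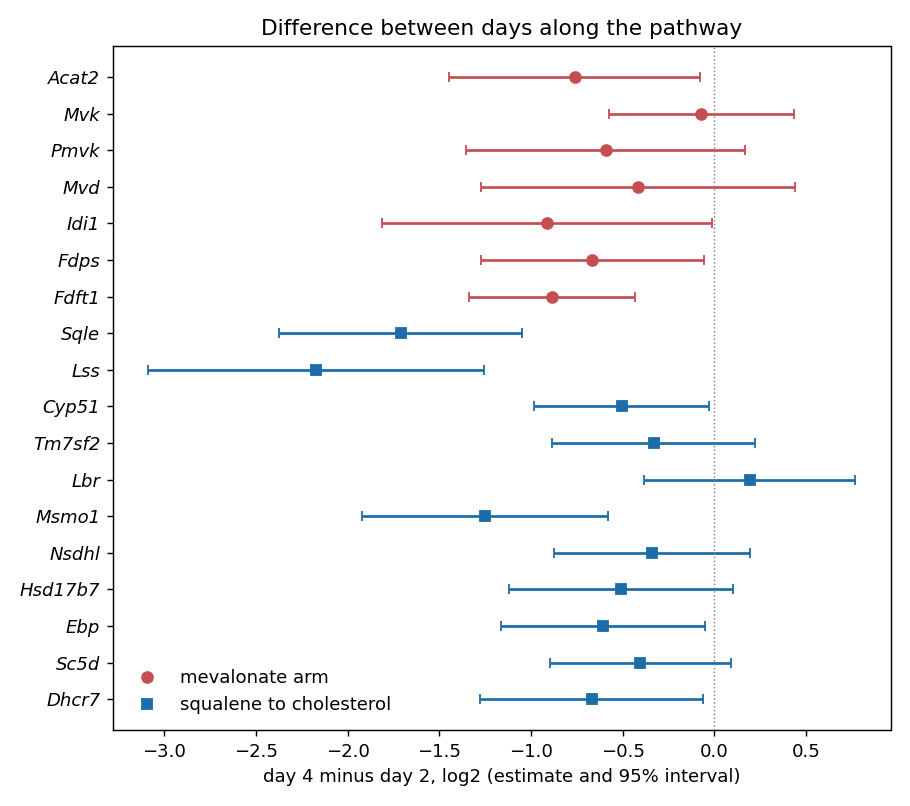
Estimated difference of the log2 ratio between day 4 and day 2 (horizontal axis) with its unadjusted 95% interval, for the 7 members (circles) and the 11 genes from squalene to cholesterol (squares) in pathway order. All members lie below 0, from -0.91 for Idi1 to -0.07 for Mvk, and Sqle and Lss lie lower still.

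Between day 4 and day 7 the members went different ways. The day 7 minus day 4 difference was positive for 4 of 7, against 48.6% of all genes, namely 1.02 for Idi1 (95% interval 0.12 to 1.92), 0.78 for Acat2 (0.099 to 1.47), 0.41 for Fdft1 (-0.045 to 0.86) and 0.06 for Fdps. It was negative for Pmvk at -0.41, Mvk at -0.22 and Mvd at -0.02. None passed in limma, where 0% of genes did, and the smallest adjusted p was 0.368, for Acat2. Acat2 and Idi1 had a positive difference with an unadjusted p under 0.05, against 5.26% of all genes. For Fdft1 all 3 day 7 samples lay above all 3 day 4 samples, as in 8.58% of all genes, and for Mvk all lay below, as in 11.1%. Both gave an exact permutation p of 0.1. The Mvk value rested on its dim probe set, without which the difference was 0.42. The Fdft1 separation held for the gene average but not for its probe set 1389906_at alone. With 1 sample left out, between 3 and 5 members had a positive difference.

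Against day 2, the day 7 ratio was lower for 5 of 7 members and 51.7% of all genes, and for 7 of 7 without sample 1 or sample 3 of day 7. The difference was -1.001 for Pmvk (95% interval -1.76 to -0.24; unadjusted p = 0.0161, limma adjusted p = 0.629), a 2.00-fold lower ratio, and -0.60 for Fdps (-1.21 to 0.0025). In these 2 members all day 7 samples lay below all day 2 samples, as in 7.15% of all genes (exact permutation p = 0.1 for each). Fdft1 was at -0.48 (-0.93 to -0.029), with overlapping samples. Pmvk and Fdft1 had an unadjusted p under 0.05, against 3.66% of all genes for a negative difference. Acat2, at 0.02, and Idi1, at 0.11, had intervals of -0.66 to 0.70 and -0.79 to 1.01, wide enough to include a difference of the size seen in Fdps. Limma called 0 genes, or 0%, here too.

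Within day 7 the samples differed in most of the arm at once. In sample 1 of day 7, 6 of 7 members were above 0 with a median of 0.47. In sample 2, 7 of 7 were below 0 with a median of -0.64, and in sample 3, 5 of 7 were below 0 with a median of -0.24. Of the 11 later enzymes, 8 were above 0 in sample 1 and 10 below 0 in sample 2, while in sample 3 they were spread around 0, with 6 below and a median of -0.0020. Without sample 2 the day 7 means were 0.57 for Idi1, 0.60 for Acat2 and -0.07 for Pmvk, against 0.10, 0.25 and -0.34 with it. On day 4, in contrast, the member medians were -0.51, -0.31 and -0.29, and on day 2 0.13, 0.33 and 0.36.

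**Figure D4:**
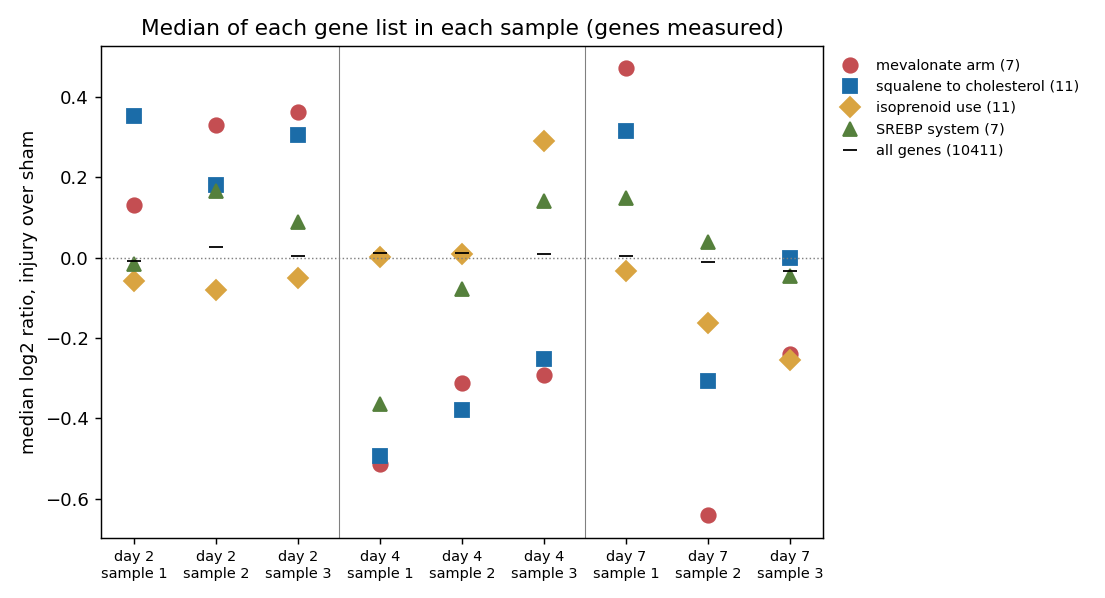
Median log2 ratio of injury over sham (vertical axis) of each gene list in each of the 9 samples, with the number of genes measured in the legend. The medians of the mevalonate arm and of the later enzymes lie above 0 in the 3 samples of day 2, below 0 in those of day 4, and from 0.47 to -0.64 for the mevalonate arm at day 7.

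Genes that use isoprenoids outside sterol synthesis gave other values. Of 14 listed, 11 were analysed here. Of these, 8 had a positive day 4 minus day 2 difference, against 5388 of all 10411 genes, and the median of the 11 was 0.19. The lowest was Nus1, a subunit of the dolichol-making prenyltransferase, at -0.30, and the highest Rabggta, a subunit of the enzyme that prenylates Rab proteins, at 1.44. None passed in limma (smallest adjusted p = 0.665). Of 10 listed genes of the SREBP system 7 were analysed here. Of these, 5 had a negative difference, against 48.2% of all genes, and the median of the 7 was -0.39. The lowest was Insig1, which holds SREBP in the endoplasmic reticulum and is itself an SREBP target, at -0.80, and the highest Mbtps2, a protease that releases SREBP, at 0.36, with no call (smallest adjusted p = 0.754). Srebf2, the gene of SREBP-2, had ratios of -0.79, -0.65 and 0.55 at day 4, so its samples lay on both sides of 0.

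Over the 9 arrays the members resembled each other to different degrees. Pearson's r of the log2 ratio was above 0 in 20 of the 21 pairs of members, with a median of 0.56. It was highest for Acat2 and Idi1 at 0.95 and for Pmvk and Mvd at 0.81, and lowest for Acat2 and Mvk at -0.048. The Mvk average used here includes its dim probe set, which had r = -0.63 and -0.46 with the other Mvk probe sets. Correlations of Mvk with other members without that probe set were not calculated. These values describe genes on the same arrays, which share each array's RNA and scaling. Among the other 10404 genes, the 10 most like the mean of the members, each scaled to equal SD, were Shank3, Acss2, Dpp8, Cd300c2, Glyr1, Ier2, Sox11, Neo1, Mgat3 and Atg5, with r from 0.917 to 0.872. Acss2, which makes cytosolic acetyl-CoA from acetate, had r = 0.914 and means of 0.46, -0.35 and 0.03 at days 2, 4 and 7. Of the later enzymes, Dhcr7, the last reductase of cholesterol synthesis, ranked 27 (r = 0.84) and Msmo1 45 (r = 0.816), while Lbr ranked 9789 (r = -0.546).

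Markers of cell types moved on the same arrays, and their part in these results was not tested. Of 9 hepatocyte markers, 9 were above 0 at day 2 (median 0.14), 0 at day 4 (median -0.15) and 1 at day 7 (median -0.12). Exocrine pancreas markers had 15 of 15 above 0 at day 4 (median 1.69), with array medians of 0.098, 2.89 and 1.38 in samples 1 to 3. Day 4 medians were 0.72 for 4 red cell markers and 0.28 for 7 macrophage markers. The day 4 minus day 2 difference was negative for 9 of 9 hepatocyte markers, with a median of -0.30. It was positive for 15 of 15 exocrine pancreas markers (median 1.42), 4 of 4 red cell markers (0.81) and 7 of 7 macrophage markers (0.17). Medians of that difference in the other lists were -0.065 for 4 skin, 0.24 for 6 skeletal muscle, 0.18 for 3 adipose and 0.40 for 4 intestine markers. The difference between 3′ and 5′ control probe sets of actin ran from -0.79 to -0.061 at day 2, from -0.35 to 0.38 at day 4 and from -0.88 to -0.44 at day 7, and that of GAPDH from -0.42 to 0.11, from -0.081 to 0.31 and from -0.80 to -0.21.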

How the data were processed

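The deposited table holds log2 ratios of 2 array signals, 1 per probe set and sample. Per the labels, both channels of a sample were processed on Affymetrix RAE230A arrays, and how the authors scaled them is not given in the sources used here. Of 15923 probe sets, 57 controls were left out. The platform annotation gave 12783 of the other 15866 a single gene symbol, 312 several and 2771 none. Each array was centred on its median (between -0.13 and 0.16 before), and a gene's value is the average of its probe sets, for 10411 genes in all.

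Day means of the 9 arrays of days 2, 4 and 7 and their differences were fitted in limma 3.58.1 under R 4.3.3 (lmFit and eBayes, 6 residual degrees of freedom, Benjamini-Hochberg adjustment over all genes, threshold 0.05, two-sided). The fit was tested on simulated data. Exact permutation tests over samples were two-sided. Sign flips of 3 samples cannot give a p below 0.25. For arrays, their number limits the precision. To judge brightness and identifiers, the pair of whole numbers behind each ratio was searched by continued fractions with a tolerance of 1e-09 on the log2 scale and numbers up to 20000. Between 66.4% and 69.4% of ratios per array had a pair up to 3000, against at most 0.5% of values shifted at random. Pairs above 3000 were not checked in this way, though brightness and the rank correlations used pairs up to 20000. Brightness is the median log2 of the smaller number. Ratios without a pair up to 20000 were left out of it.

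The members, gene lists and rules for named genes were chosen with earlier results of these data known. All members are named. In the other pathway lists the genes with the lowest and highest day 4 minus day 2 difference are named, and the 10 genes most like the members by Pearson's r. Sqle, Msmo1, Srebf2, Acss2 and Dhcr7 were singled out after their values were seen. Alternatives were other centrings, a variance trend, all 12 arrays, the named days alone, array weights, single probe sets, a filter on dim probe sets, each sample left out, and the sample number as a block.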

Additional observations from a re-analysis of the deposited data

Results flagged for a closer look

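For 2 members every day 2 sample was above 0 and every day 4 sample below 0 in the gene average. The same held for 2.39% of all genes. The members were Acat2, with a day 4 minus day 2 difference of -0.76 (limma, adjusted p = 0.648), and Fdft1, with -0.89 (adjusted p = 0.491). The Fdft1 probe set 1389906_at alone was at -0.0027 in sample 3 of day 2. Among the later enzymes the pattern of the 2 members held for Sqle, with -1.71 (adjusted p = 0.477), and Msmo1, with -1.25 (adjusted p = 0.516). Pggt1b, a subunit of the enzyme that adds geranylgeranyl groups to proteins, was below 0 in every day 2 sample and above 0 in every day 4 sample, with a difference of 0.29 (adjusted p = 0.805). Insig2, which like Insig1 retains SREBP, was above 0 in every day 2 sample and below 0 in every day 7 sample, with a day 7 minus day 2 difference of -1.01 (adjusted p = 0.629). Mbtps1, a protease that cleaves SREBP, was below 0 in every day 4 sample and above 0 in every day 7 sample, with a difference of 0.34 (adjusted p = 0.534). None of these differences passed the threshold in limma. The shares of all genes with the patterns of Pggt1b, Insig2 and Mbtps1 were not calculated, so how common those patterns are is not known here.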

How the results depend on the processing

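No member passed the threshold in any of the 7 comparisons under any setting, and the smallest adjusted p was 0.12, for Fdft1 at day 4 with the variance trend (limma). The setting with all 12 arrays adds day 1 values whose identifiers do not match. Its estimate of the spread therefore mixes unlike probe sets, which limits its p-values and counts. Of 882 alternative values of members, 835 kept their sign, but many of them could not change it. The variance trend, all 12 arrays, the named days alone and the sample number as a block leave the estimates as they were. So does leaving out a sample of a day outside the comparison, and the filter on dim probe sets changed only Mvk. The day 4 minus day 2 difference was below 0 for 7 of 7 members under each setting other than leaving out a sample, scalings included. The number of genes called at day 2 was 0 and became 15 with the variance trend and 1 without dim probe sets. At day 4 it was 0 and became 1 with quantile normalization or all 12 arrays and 2 with array weights. At day 7 it was 0 and became 4 with the variance trend and 1 with all 12 arrays or with single probe sets. For the mean of days 2, 4 and 7 it was 4 and became 2 with quantile normalization or single probe sets, 35 with the variance trend, 8 with all 12 arrays or without dim probe sets, and 0 with the sample number as a block. For day 4 minus day 2 it was 0 and became 1 with quantile normalization or all 12 arrays, and for day 7 minus day 4 it was 0 and became 3 with the variance trend and 1 with single probe sets. Leaving out a sample gave 0 to 1 genes for each day and for the 2 differences that involve day 4, 0 to 0 for day 7 minus day 2, and 0 to 3 for the mean.

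The following signs turned. With no centring Mvk at day 2 was -0.0037 and Mvd at day 7 minus day 4 was 0.10. With quantile normalization Idi1 was 0.049 at day 2, and day 7 minus day 2 was -0.055 for Acat2 and -0.023 for Idi1. With array weights Idi1 was 0.014 at day 2 and Acat2 -0.027 at day 7 minus day 2. With its brightest probe set alone Idi1 was 0.21 at day 2, -0.021 at day 7 and -0.23 at day 7 minus day 2. With its brightest probe set Mvk was 0.25 at day 7, 0.059 for the mean of the days, 0.36 at day 7 minus day 4 and 0.20 at day 7 minus day 2, and without its dim probe set 0.25, 0.033, 0.42 and 0.22. With a sample left out, ranges that crossed 0 were, at day 2, -0.19 to 0.12 for Idi1 and -0.18 to 0.21 for Mvk, at day 4, -0.083 to 0.038 for Mvk, and at day 7, -0.13 to 0.57 for Idi1 and -0.68 to 0.10 for Mvd. For day 4 minus day 2 the range was -0.25 to 0.14 for Mvk. For day 7 minus day 2 it was -0.19 to 0.37 for Acat2 and -0.13 to 0.58 for Idi1, and for day 7 minus day 4 -0.13 to 0.27 for Fdps and -0.40 to 0.38 for Mvd. For the mean of the days it was -0.090 to 0.096 for Acat2, -0.11 to 0.021 for Fdps and -0.0055 to 0.22 for Pmvk. The cause was not tested.

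Samples that share a number across days did not deviate together (r between -0.041 and 0.0682 over genes). Whether the numbers stand for shared material cannot be told from this, and the main fit did not pair samples by number. With the replicate block 0 genes were called in each comparison, and the smallest adjusted p of a member was 0.378, for day 7 minus day 4.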
